A study of Mus musculus with 6 samples.

Results

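This is an account of 37 genes of the unfolded protein response and the integrated stress response in mouse livers that lack sphingosine 1-phosphate (S1P) lyase. The members were fixed as a list of gene symbols, and every probe set annotated with exactly 1 symbol equal to a member was taken. This gave 80 of the 45101 probe sets in the table, covering 37 of 37 genes. The list holds 18 genes of the integrated stress response, most of them targets of the transcription factor ATF4, with 31 probe sets. The other 19 genes, with 49 probe sets, belong to the endoplasmic reticulum (ER), as stress sensors, chaperones, disulphide isomerases and parts of the degradation machinery.

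The livers came from 3 mice without S1P lyase (knockout) and 3 with it (WT), and each animal's RNA was read on an Affymetrix array of its own. The enzyme, a product of the gene Sgpl1, irreversibly breaks down S1P, the last intermediate of sphingolipid degradation. All 6 animals were untreated and of the strain C57BL6 X 129sv mixed. The labels give the knockout without a promoter or Cre, and do not give age, sex or litter.

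When unfolded proteins build up in the ER, the sensors PERK, IRE1 (Ern1) and ATF6 are released from the chaperone BiP (Hspa5). PERK phosphorylates the translation factor eIF2alpha, as do the kinases that sense amino acid shortage, viral RNA and heme shortage, and this shared step favours translation of ATF4, which turns on genes for amino acid synthesis and transport and for stress feedback. IRE1 splices the mRNA of Xbp1, and XBP1 and the cleaved form of ATF6 turn on chaperones and degradation genes. The liver secretes most plasma proteins, so its hepatocytes carry a large ER and high levels of these chaperones.

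Values are the authors' deposited log2 signals, and a difference is knockout minus WT on that scale. A gene is read by its brightest probe set, and "rose" and "fell" mean that limma, fitted to 13370 genes, gave a false discovery rate (Benjamini-Hochberg) below 0.05. Sgpl1 itself fell by 3.98 log2 (SE 0.16). The liver label fits the markers in every array, with Alb at 14.25 to 14.33 log2 and Apoa1 at 14.22 to 14.32. The knockout arrays differed in other ways too. The Actb signal from 3' probes less that from 5' probes, a measure of transcript integrity, was 1.12 to 1.45 log2 in knockout and 0.81 to 0.97 in WT. For Pcx the gap was wider, at 2.77 to 3.40 in knockout and 1.97 to 2.31 in WT. Gapdh read 0.25 to 0.57 in knockout and -0.06 to 0.07 in WT. The spiked poly-A control RNAs averaged 8.52 to 9.07 log2 in knockout and 7.99 to 8.08 in WT, so all differences are lower by 0.75 log2 when arrays are centred on them. In each of these measures the groups did not overlap (two-sided exact permutation p = 0.1, which is the lower limit for 3 against 3 arrays). WT 3 and knockout 3 stood apart from the other 4 arrays in the ER genes, and results that rest on them are given with and without them.

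In the knockout livers 7 of 18 integrated stress response genes rose and none fell, while none of the 19 ER genes rose or fell (limma). At an unadjusted p under 0.05, 1 of the 18 was lower, and of the 19 none was higher and 1 lower. Over all genes tested 10.5% rose and 8.09% fell. The median difference was 0.44 log2 in the integrated stress response genes, 0.07 in the ER genes and -0.05 over all genes. Of the 18 genes, 17 had a difference above 0, against 10 of the 19 ER genes and 5937 of all 13370 genes. Counting arrays rather than tests, 11 of the 18 had all knockout arrays above all WT arrays, as did 0 of the 19 and 19% of all genes. The reverse order held for Fgf21 and Pdia4, 1 gene of each branch, and for 21.8% of all genes. With arrays centred on the poly-A controls the medians were -0.31, -0.68 and -0.80, so both medians turned negative. That centring takes the same 0.75 log2 from every difference, so the order of the genes cannot change with it.

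**Figure D1:**
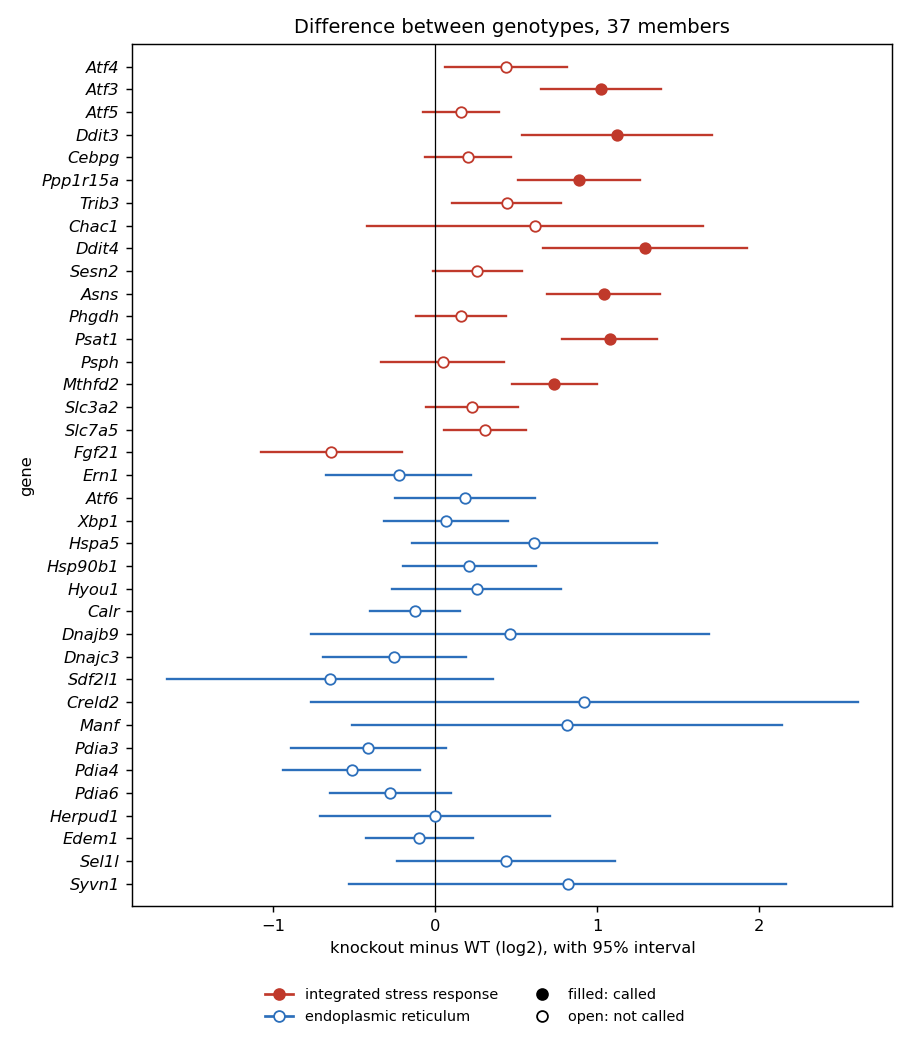
Difference between knockout and WT livers (log2, x axis) for each of the 37 members (y axis, ordered by branch and role), with the 95% interval from limma. Integrated stress response genes are red and ER genes blue, and filled points were called: 7 red points are filled and no blue one is.

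All 5 transcription factors of the integrated stress response had differences above 0, and 2 of them rose. Atf3, an early stress factor that ATF4 induces, read 5.09, 5.52 and 5.07 log2 in the WT livers and 6.45, 6.16 and 6.15 in the knockout livers. Every knockout value lay above every WT value, and Atf3 rose 2.03-fold (1.02 log2, SE 0.16, limma adjusted p = 0.00437). Ddit3, whose product CHOP promotes cell death under lasting ER stress, read 5.90, 6.17 and 6.84 in WT and 7.72, 7.12 and 7.43 in knockout. It rose 2.18-fold (1.12 log2, SE 0.25, limma adjusted p = 0.0199). Ddit3 is a less steady call: without WT 1, WT 2 or knockout 1 its limma adjusted p was 0.0586, 0.0552 or 0.0753, and its dimmer probe set differed by 0.16 (SE 0.21).

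Atf4 read 8.997, 9.45 and 9.30 log2 in WT and 9.83, 9.41 and 9.80 in knockout, so that knockout 2 lay inside the WT range. The difference was 0.43 (95% interval 0.06 to 0.81) and did not pass (limma adjusted p = 0.101). ATF4 is controlled largely through translation of its mRNA, which the arrays do not measure. Atf5, a relative that is induced by the same route, read 9.40 to 9.48 in WT and 9.51 to 9.69 in knockout. The groups only just did not overlap, and the difference of 0.16 did not pass (limma adjusted p = 0.302). Cebpg, a dimer partner of ATF4, differed by 0.20 with touching groups.

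Of the feedback and stress output genes, 2 of 5 rose. Ddit4, which restrains the growth kinase mTORC1, had the largest difference among the 37 members. It read 7.19, 6.13 and 6.76 log2 in WT and 8.06, 8.26 and 7.63 in knockout, and rose 2.45-fold (1.29 log2, SE 0.27, limma adjusted p = 0.0151). It did not pass without knockout 1 (limma adjusted p = 0.0585) or knockout 2 (0.0659). Ppp1r15a, the GADD34 subunit that directs a phosphatase to eIF2alpha and so ends the response, read 6.84, 6.46 and 6.77 in WT and 7.79, 7.31 and 7.63 in knockout. It rose 1.85-fold (0.89 log2, SE 0.16, limma adjusted p = 0.00855).

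The other 3 feedback genes had differences above 0 that did not pass. Trib3, a pseudokinase that binds ATF4 and CHOP, read 4.72 to 5.03 log2 in WT and 5.06 to 5.47 in knockout, a difference of 0.44 (limma adjusted p = 0.0716). Its dimmer probe set differed by 1.10, but its WT mean of 3.53 lay below the level of 3.576 under which probe sets were left out. It was tested only because the knockout arrays were higher, so its call is not used here. Sesn2, which signals leucine shortage to mTORC1, differed by 0.26, with knockout 3 level with WT 1. Chac1, which degrades glutathione, spread widest among the 18 genes. It read 6.60, 6.01 and 4.96 in WT and 5.76, 7.12 and 6.53 in knockout, and its difference of 0.62 had a 95% interval from -0.42 to 1.65.

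In amino acid and one-carbon synthesis 3 of 5 genes rose. Asns, which makes asparagine, read 5.23, 5.70 and 5.49 log2 in WT and 6.35, 6.58 and 6.61 in knockout. It rose 2.05-fold (1.04 log2, SE 0.15, limma adjusted p = 0.00325), and its dimmer probe set by 1.95. Psat1, the aminotransferase of serine synthesis, read 3.47, 3.71 and 3.84 in WT and 4.64, 4.78 and 4.83 in knockout, near the 3.58 log2 under which probe sets were left out. It rose 2.11-fold (1.08 log2, SE 0.13, limma adjusted p = 0.00135). Mthfd2, a mitochondrial folate enzyme, read 4.64, 4.78 and 4.49 in WT and 5.38, 5.42 and 5.32 in knockout. It rose 1.66-fold (0.73 log2, SE 0.11, limma adjusted p = 0.0043), and by 1.47 on its other probe set. The 3 genes kept their call when any 1 array was left out, as did Atf3 and Ppp1r15a.

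The first and last enzymes of serine synthesis did not pass. Psph, the phosphatase of the last step, read 5.17, 5.36 and 5.79 log2 in WT and 5.42, 5.55 and 5.49 in knockout, overlapping groups with a difference of 0.05 (95% interval -0.33 to 0.43). For Phgdh, the enzyme of the first step, the answer depended on the probe set. Its brightest differed by 0.16 (SE 0.12), and another by 0.14. The remaining pair rose: one read 5.95 to 5.99 in WT and 6.69 to 6.998 in knockout (0.86, SE 0.12, limma adjusted p = 0.00309 over probe sets), the other rose by 1.02. All 4 Phgdh probe sets are of a kind (_x_at) that can also read related transcripts.

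The amino acid transporter genes Slc3a2 and Slc7a5, which encode the heavy and light chains of one leucine carrier, had knockout and WT groups that did not overlap, with knockout higher. The differences were 0.23 and 0.31 log2, and neither passed (limma adjusted p = 0.232 and 0.0887). The hormone Fgf21 ran the other way and was the 1 of 18 genes with a difference below 0. FGF21 is secreted by the liver and is induced by ATF4 as well as in fasting by PPAR-alpha. It read 5.15, 5.87 and 5.76 log2 in WT and 5.02, 4.85 and 4.98 in knockout, groups that did not overlap. The difference was -0.64 (SE 0.19), just short of the threshold (limma adjusted p = 0.0504). It passed downwards without WT 1, at -0.86 (limma adjusted p = 0.00739). WT 1 was the lowest WT liver, so leaving it out widens the difference by construction and this call is no test. Fgf21 also passed under several other settings, at limma adjusted p of 0.0218 to 0.0488. With poly-A centring the value was 4.99e-07, but 10120 of 13370 genes then fell. Fgf21 did not pass with arrays centred on their median (-0.61, limma adjusted p = 0.07) or on hepatocyte markers (-0.51, limma adjusted p = 0.214).

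**Figure D2:**
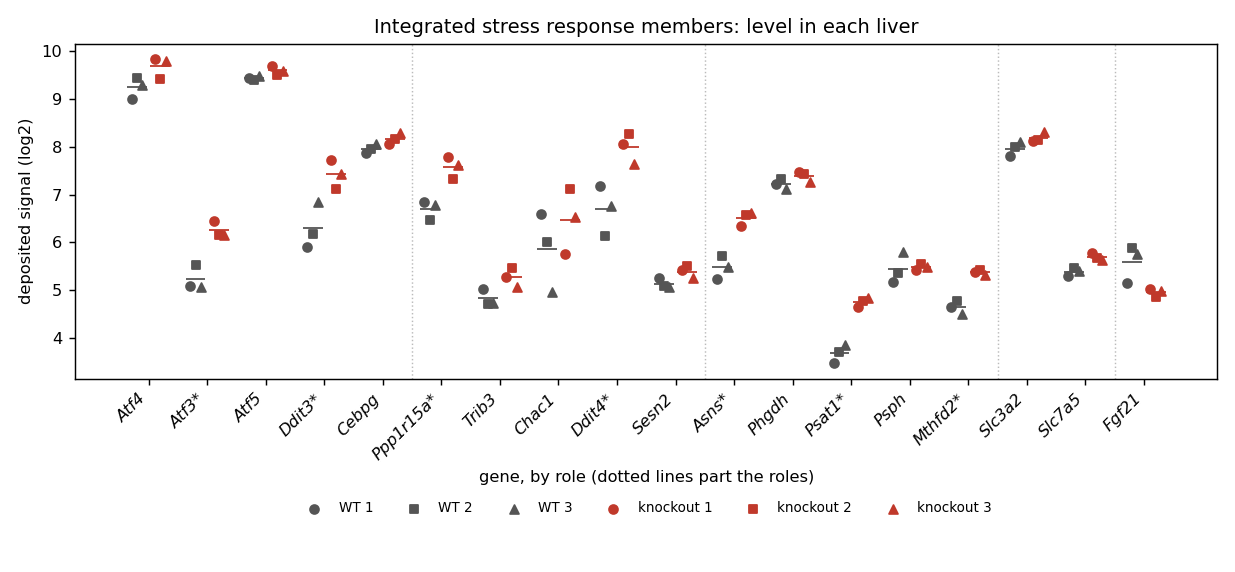
Deposited log2 signal (y axis) of the 18 integrated stress response genes (x axis) in each liver, WT in grey and knockout in red, with the shape giving the replicate and a bar the group mean. Genes that rose carry an asterisk. Levels of different genes are not comparable, because probes differ. In the 7 marked genes all red points lie above all grey ones, and in Fgf21 all lie below.

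Transcripts of blood cells moved with these rises. Of the neutrophil markers 8 of 9 tested (10 listed) rose, and their mean per array was 9.06 to 9.38 log2 in knockout and 5.36 to 5.61 in WT. Of the monocyte and macrophage markers 4 of 6 tested passed upwards, Itgam among them only because its knockout level let it be tested (mean 7.74 to 7.90 against 6.10 to 6.56). Of the Kupffer cell markers 2 rose and 4 fell of 7 (6.83 to 7.15 against 7.42 to 7.76). Cd163 was among these falls only because its WT level let it be tested (mean 3.21 in knockout and 5.24 in WT). Hepatocyte markers averaged 12.34 to 12.74 in knockout and 12.63 to 12.85 in WT, and 1 of 8 tested fell. Atf3, Ddit4 and Ppp1r15a are also induced in myeloid cells, and the part of other cells, of the higher 3' to 5' values and of the poly-A signal in the rises was not tested. In RNA of whole liver, fewer cells of a type and less RNA per cell cannot be told apart.

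The ER genes overlapped between genotypes, with 1 exception. This was Pdia4, a disulphide isomerase, the 1 gene with an unadjusted p under 0.05, which read 8.99, 8.88 and 9.28 log2 in WT and 8.21, 8.53 and 8.86 in knockout (-0.52, SE 0.18, limma adjusted p = 0.0869). In the other 18 the genotypes overlapped. The median SD within a genotype was 0.33 log2 over the 19 genes, 0.19 over the 18 genes of the integrated stress response and 0.17 over all genes tested.

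Of the sensors, Ern1 differed by -0.23 log2, Atf6 by 0.18 and Xbp1 by 0.07, and none passed. Xbp1 read 10.53, 10.96 and 10.73 in WT and 10.61, 10.68 and 11.12 in knockout, with a 95% interval from -0.32 to 0.45. The arrays read total Xbp1, and the splicing by IRE1 was not measured. A dimmer Ern1 probe set lay apart, at 5.11 to 5.80 in WT and 4.65 to 4.88 in knockout, and just missed the threshold (-0.63, limma adjusted p = 0.0502 over probe sets).

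The chaperones and their helpers were split, with 6 of 9 differences above 0 on the brightest probe set of each gene. Hspa5, the master chaperone BiP, read 10.61, 11.17 and 12.04 log2 in WT and 11.83, 11.63 and 12.21 in knockout, so that WT 3 lay above 2 of 3 knockout livers. Creld2 and Manf are small ER proteins induced by ER stress. Creld2 read 6.82, 7.44 and 9.91 in WT and 9.06, 8.24 and 9.63 in knockout, and Manf read 8.56, 9.67 and 11.09 in WT and 10.63, 10.004 and 11.13 in knockout. For all 3 genes WT 1 and WT 2 lay below every knockout liver. WT 3 lay above all knockout livers in Creld2 and above 2 of them in Manf. The differences of Hspa5, Creld2 and Manf were 0.61 (95% interval -0.15 to 1.37), 0.92 (-0.77 to 2.61) and 0.81 (-0.51 to 2.14).

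Dnajb9, a BiP cochaperone that restrains IRE1, read 7.92, 9.46 and 10.30 log2 in WT and 9.64, 9.29 and 10.13 in knockout. Its range among WT livers alone was 2.39, against a difference of 0.46 between genotypes. Sdf2l1, a BiP cofactor, read 7.96, 7.71 and 8.97 in WT and 7.03, 7.18 and 8.48 in knockout, a difference of -0.65 (95% interval -1.66 to 0.35). Hsp90b1, the ER form of HSP90, differed by 0.21, Hyou1, a nucleotide exchange factor of BiP, by 0.25, Calr, the lectin chaperone calreticulin, by -0.13 and Dnajc3, an inhibitor of eIF2alpha kinases, by -0.25.

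The disulphide isomerases, which form and shuffle disulphide bonds, all had differences below 0 that did not pass. Pdia3 read 10.70, 10.62 and 10.78 log2 in WT and 9.99, 10.06 and 10.81 in knockout, so knockout 3 alone reached the WT level. Pdia6 read 9.84, 9.73 and 9.98 in WT and 9.34, 9.46 and 9.91 in knockout. Without knockout 3, Pdia3 and Pdia4 passed downwards with limma, by 0.68 each. Knockout 3 was the highest knockout liver in both, so leaving it out lowers their differences by construction and these calls are no test. A dim second probe set of Pdia3 fell by 0.61 (SE 0.11, limma adjusted p = 0.00943 over probe sets), the 1 ER probe set called of 47 tested, where 7.82% of all probe sets fell and 10.1% rose.

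Among the genes of ER-associated degradation, Syvn1, the ubiquitin ligase HRD1, read 6.68, 7.32 and 9.09 log2 in WT and 8.47, 7.88 and 9.19 in knockout. Its partner Sel1l read 7.86, 7.99 and 8.98 in WT and 8.73, 8.41 and 8.99 in knockout. Herpud1, which assembles this complex, read 10.73, 10.77 and 11.72 in WT and 10.84, 10.78 and 11.59 in knockout, with group means level to 2 decimals and WT 3 and knockout 3 above all other livers. Edem1, which passes misfolded glycoproteins on to degradation, differed by -0.10.

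**Figure D3:**
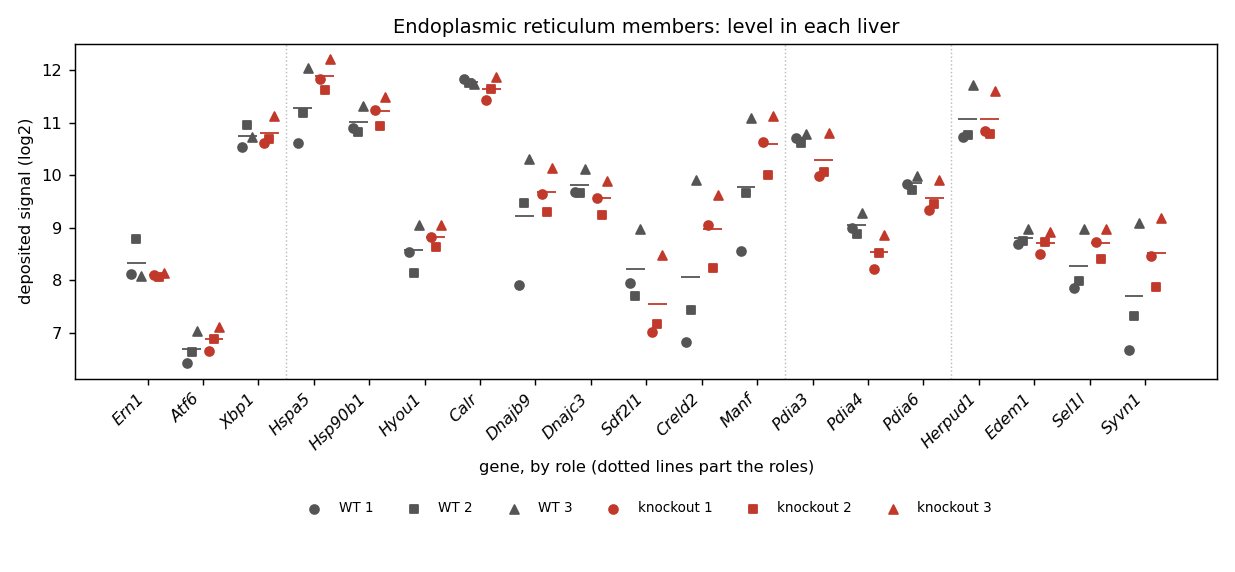
Deposited log2 signal (y axis) of the 19 ER genes (x axis) in each liver, WT in grey and knockout in red, with the shape giving the replicate and a bar the group mean. The triangles, WT 3 and knockout 3, sit at the top of their group in most genes, and no gene passed the test. Levels of different genes are not comparable.

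The ER genes moved together from animal to animal. Knockout 3 was the highest knockout liver in 19 of 19 ER genes, and WT 3 the highest WT liver in 16 of 19. Over all genes tested these shares were 36.9% for knockout 3 and 36.9% for WT 3. In 16 of 19 ER genes (84.2%) both held at once, as in 17.3% of all genes, in 3 of 18 integrated stress response genes (16.7%) and in 35 of the 47 tested ER probe sets. The exceptions were Ern1, Xbp1 and Calr, in which WT 3 was not the highest WT liver. Replicate numbers only name the animals here and do not pair them. These arrays were singled out after their values were seen, so no test is given. The sample titles carry numbers, and those of WT 3 and knockout 3 are the last in the list and consecutive. The labels do not say what these animals share.

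In the median over the ER genes, each relative to its WT mean, the WT livers stood at -0.21, -0.12 and 0.34 log2 and the knockout livers at -0.13, -0.07 and 0.41. The gap within each genotype was thus larger than the 0.07 between their means. The integrated stress response genes showed no such order, at -0.09, 0.03 and 0.04 in WT and 0.42, 0.49 and 0.445 in knockout. Without WT 3, 5 ER genes passed upwards with limma: Creld2 by 1.85 log2, Syvn1 by 1.51, Manf by 1.47, Hspa5 by 0.99 and Sel1l by 0.79 on its brightest probe set. WT 3 was the highest WT liver in 16 of 19 ER genes. Knockout 3, kept here, was the highest knockout liver in 19 of 19. Leaving out WT 3 thus raises most of these differences by construction, so the 5 calls are no test. The median of the ER genes was 0.32 without WT 3. Without knockout 3 it was -0.09.

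Some array measures also set these animals apart. The marker means of the B cell, T and NK cell, monocyte and macrophage, and stellate cell lists were lowest in WT 3 among WT and in knockout 3 among knockout livers. Those of the other lists were not lowest in both. For hepatocyte markers this was close: knockout 3 was the lowest knockout liver (12.34 log2, against 12.64 and 12.74). In the same list WT 3 (12.636) lay just above the lowest WT liver, WT 2 (12.631). Knockout 3 had the lowest 3' to 5' value for Actb of the knockout livers (1.12 against 1.42 and 1.45 log2) and WT 3 the middle one of WT (0.87, between 0.81 and 0.97). Plasma cells also carry much ER, and 4 of their 7 listed markers were tested. Of these Mzb1 rose, while Pou2af1 and Irf4, at WT means of 3.14 and 3.35 log2, were tested only because their knockout levels were higher. The mean of the plasma cell markers was lowest in knockout 3 among knockout livers (6.03, against 6.43 and 6.49). Among WT livers it was lowest in WT 2 (4.99), with WT 3 (5.27) level with WT 1 (5.28). This mean includes the dim Pou2af1 and Irf4, and Sdc1, which was bright in all livers and differed by 0.01. Mzb1 alone had another order, at 4.78, 4.88 and 4.92 in WT and 5.92, 5.45 and 5.57 in knockout. The order of the mean is therefore not read as one of plasma cells. The part of these measures in the order of the ER genes was not tested.

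**Figure D4:**
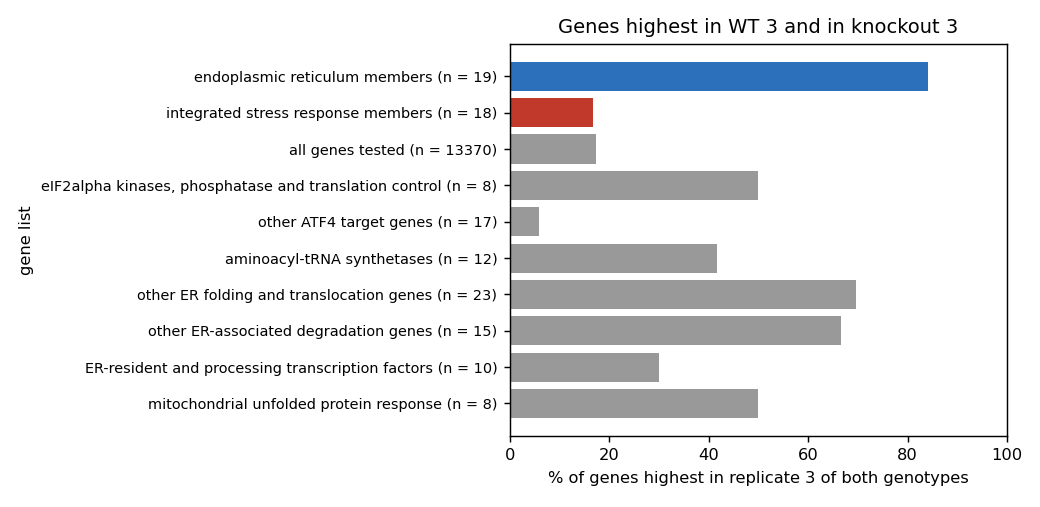
Share of genes (x axis, %) that are highest in WT 3 among WT livers and in knockout 3 among knockout livers, for each gene list (y axis, number tested in brackets). The bar of the ER members reaches 84.2%, that of the integrated stress response members 16.7% and that of all genes 17.3%.

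Promoters of 7 of 16 ER genes held one sequence element. The ER stress response element (ERSE), bound by ATF6 with the factor NF-Y, is CCAAT and CCACG parted by 9 bases of any kind, and it was searched on both strands of the stretch from 250 bases before to 50 bases after each start site (RefSeq, GRCm38.p6). A window was at hand for 33 of the 37 members, all but Atf6, Hyou1, Manf and Slc7a5. The ERSE letters were found in 7 of 16 ER genes (43.8%), in 0 of 17 integrated stress response genes and in 0.137% of all 27025 genes. The 7 are Hspa5, Hsp90b1, Creld2, Calr, Dnajc3, Pdia6 and Syvn1. The related ERSE-II, ATTGG and CCACG parted by 1 base, was found in Herpud1 and in 0.0444% of all genes. Its ATTGG is CCAAT read on the other strand. The UPRE core TGACGTGG, which can overlap the CCACG end of ERSE, was in no member and in 0.714% of all genes.

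The stretches below are of the 4 ER genes with ERSE or ERSE-II letters that had the largest SD within a genotype: 1.26 log2 in Creld2, 0.998 in Syvn1, 0.55 in Hspa5 and 0.51 in Herpud1. Manf, Dnajb9 and Sdf2l1 varied more than Hspa5. Each runs 5' to 3' along the gene, and capitals mark the ERSE or ERSE-II letters, in Herpud1 also a CARE core. They lie at chr2:34772005-34772063 on the plus strand (Hspa5), chr15:88819500-88819558 on the plus strand (Creld2), chr19:6046512-6046570 on the plus strand (Syvn1) and chr8:94386297-94386407 on the plus strand (Herpud1). In Creld2 the element runs on the opposite strand.
Hspa5: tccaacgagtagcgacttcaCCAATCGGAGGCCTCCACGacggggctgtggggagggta
Creld2: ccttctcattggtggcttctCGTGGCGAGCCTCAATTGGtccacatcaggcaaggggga
Syvn1: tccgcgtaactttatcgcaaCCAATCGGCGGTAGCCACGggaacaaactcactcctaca
Herpud1: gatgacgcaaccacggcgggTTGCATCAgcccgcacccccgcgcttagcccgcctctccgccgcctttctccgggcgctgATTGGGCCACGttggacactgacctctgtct

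The pattern of WT 3 and knockout 3 was counted in all genes with this element. Of 19 tested genes with ERSE letters in their window, 6 of the 7 members (85.7%) were highest in both WT 3 and knockout 3, and 2 of the 12 others (16.7%). Canx, the lectin chaperone calnexin, was 1 of these 2. The share was 84.2% over all ER members, with or without the letters, and 17.3% over all genes. The pattern was first seen in the members, so their count is no test of the element. By genotype 1 of the 19 rose and 2 fell, none of them a member.

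The element of the other branch, the CARE core TGATGNAA, which is bound by ATF4 with a C/EBP partner, was found in 5 of 17 integrated stress response genes (29.4%), in 1 of 16 ER genes and in 4.51% of all genes. The 5 were Asns, Atf3, Chac1, Trib3 and Fgf21, of which Asns and Atf3 rose and Fgf21 read lower without passing. Shown are the called pair and Fgf21, which shares its core letters with Atf3 while its level went the other way. They lie at chr6:7693210-7693252 (Asns), chr1:191183416-191183463 (Atf3) and chr7:45615602-45615649 (Fgf21), all on the minus strand, and capitals mark the core. Letters absent from a window say nothing of elements elsewhere in the gene.
Asns: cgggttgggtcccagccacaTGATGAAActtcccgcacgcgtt
Atf3: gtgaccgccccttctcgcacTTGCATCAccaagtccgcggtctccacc
Fgf21: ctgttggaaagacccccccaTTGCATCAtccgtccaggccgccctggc

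Further genes of these pathways were counted in lists of their own, beside 10.5% of all genes that rose and 8.09% that fell. In lists this short, a single called gene is not read as a result about the list. Of 17 tested further ATF4 targets (21 listed) 7 rose and 1 fell, with a median difference of 0.13 log2. The amino acid carriers Slc1a4, Slc38a2, Slc7a1 and Slc1a5 rose by 1.62, 0.66, 0.96 and 0.77, and the transcriptional regulators Nupr1, Cebpb and Jdp2 by 1.05, 1.12 and 1.09. Sqstm1, an autophagy receptor, fell by 0.72. Of the 12 aminoacyl-tRNA synthetases, which charge tRNAs and which ATF4 also targets, none rose with limma, and Aars fell by 0.55 (median -0.19). At an unadjusted p under 0.05, 1 of them was higher and 3 were lower. With 10.5% of all genes rising, no rise among 12 is not read as a result about this list. Of 8 tested genes of eIF2alpha control (9 listed, median 0.44) none rose with limma, while 3 were higher at an unadjusted p under 0.05, and Eif2ak1, the heme-sensing kinase, fell by 0.46. Eif2ak3, which encodes PERK, read 5.27, 6.41 and 7.07 in WT and 7.12, 6.87 and 7.40 in knockout and did not pass (0.88, SE 0.40).

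Of 23 tested further genes of ER folding and translocation 4 rose and none fell with limma (3 were lower at an unadjusted p under 0.05), with a median of 0.12 log2. Over all genes 10.5% rose and 8.09% fell. Ero1a, the oxidase that drives disulphide formation, read 6.60, 6.78 and 7.48 in WT and 8.44, 8.31 and 8.17 in knockout and rose by 1.35 (SE 0.22). Dnajc10, a reductase that aids degradation, rose by 0.66, and Erp29 and Pdia5 by 0.45 and 0.44. Of 15 further degradation genes none rose with limma (1 was higher at an unadjusted p under 0.05), while Derl2 and Derl3, of the channel through which proteins leave the ER, fell by 0.69 and 0.87 (median -0.09). None of 10 ER-resident factors and their processing enzymes passed with limma, and at an unadjusted p under 0.05 there were 2 higher and 1 lower. Of 8 genes of the mitochondrial unfolded protein response Clpp, a protease subunit, fell by 0.59 and none rose with limma (1 was higher at an unadjusted p under 0.05), with a median of -0.32. The pattern of WT 3 and knockout 3 was seen in 16 of the 23 folding genes (69.6%) and 10 of the 15 degradation genes (66.7%). It was also seen in 4 of 8 genes of eIF2alpha control, 4 of 8 of the mitochondrial response, 5 of 12 synthetases (41.7%), 3 of 10 ER-resident factors and 1 of 17 ATF4 targets (5.88%), against 17.3% of all genes.

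Probe sets of one gene did not always read alike. Of 8 integrated stress response genes with more than 1 tested probe set, 1 had differences of both signs, and of 15 ER genes 6 had. Sel1l had 5 tested probe sets, 1 at 0.44 log2 and the others at -0.01 to -0.85. Hyou1 had 1 at 0.25 and others at -0.51 and -0.79, and Hsp90b1 had 1 at 0.21 and 1 at -0.23. The median difference of the ER genes, 0.07 on the brightest probe sets, was -0.088 with probe sets averaged by gene. It was -0.098 without probe sets of the _x_at and _s_at kinds. Over all tested probe sets 13 of 29 of the integrated stress response passed upwards and none downwards, where 10.1% of all probe sets rose and 7.82% fell. Asns, Mthfd2 and Phgdh each gave more than 1 of the 13. The 13 also include the dimmer one of Trib3, which was tested only through its knockout level. Phgdh and Cebpg rose on probe sets other than their brightest. Not tested for their low signal were 4 of the 80 probe sets, of Atf4 (1), Psat1 (1) and Ern1 (2).

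**Figure D5:**
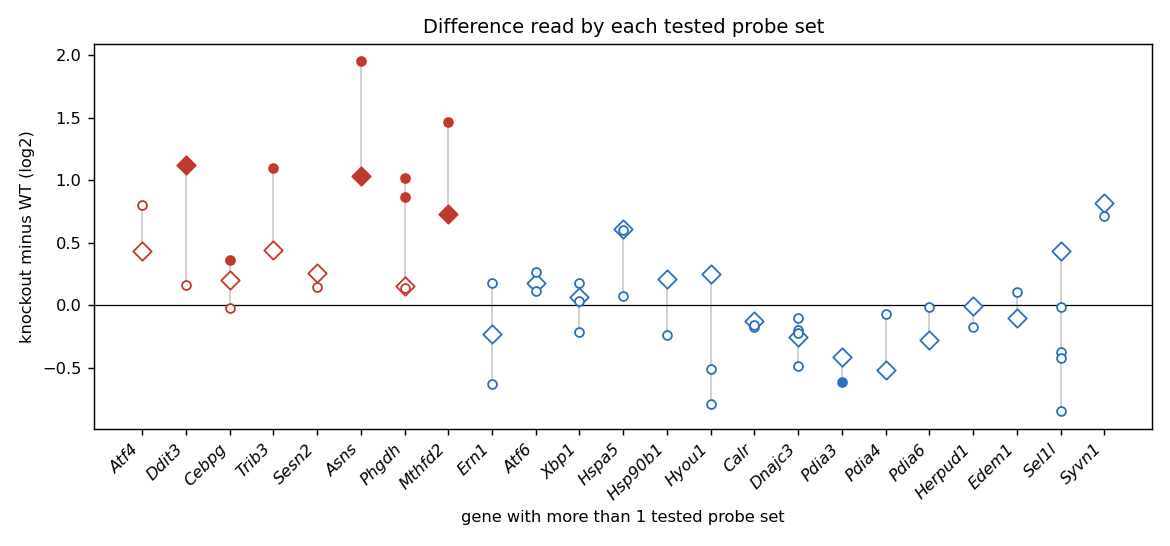
Difference between knockout and WT (log2, y axis) read by each tested probe set of the 23 members with more than 1 (x axis), integrated stress response genes in red and ER genes in blue. Diamonds are the brightest probe set of the gene and filled points were called. Red points lie above 0 but for 1 of Cebpg, while Sel1l, Hyou1 and Hsp90b1 have points on both sides.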

How the data were processed

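The authors deposited 1 log2 value per probe set and array, a scale settled from its range. MAS5 is named per the submitters' processing notes, with neither version nor role. How background, scaling and probe summaries were handled was not given in the sources used here, and no detection calls were used. Symbols came from the platform's annotation. All 80 member probe sets matched RefSeq by gene identifier.

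The 64 control probe sets and those with a mean below 3.58 log2, the 40th percentile, were dropped, which left 27022 probe sets. Each gene was read by its brightest one with exactly 1 symbol. Genotypes (groups from the labels) entered limma 3.58.1 (R 4.3.3), with an intensity trend, two-sided, over all genes, and again over all probe sets. The fit was tested on simulated data. Replicates are separate mice and are numbered in accession order. The members, lists and alternatives were chosen with earlier results of these data known.

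All 37 members are accounted for. Other pathway genes named are up to 4 per list with the smallest adjusted p, and besides these Slc1a5, Cebpb, Jdp2, Sqstm1, Eif2ak3, Canx and the ER genes whose promoters are printed were chosen after their values were seen. Alternatives were other filters, scalings and probe set rules, no trend, array weights and leaving out each array.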

Additional observations from a re-analysis of the deposited data

How the results depend on the processing

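The number of arrays, 3 per genotype, limits every comparison, and the method behind the deposited signal is unknown. The 7 rises of the integrated stress response were 6 to 8 under the settings other than poly-A centring and leaving out an array, and 5 to 7 with an array left out. Centring on the poly-A controls, which lowers every difference by 0.75 log2, left 1 rise and gave 6 falls there, 0 rises and 12 falls among the ER genes, and 2 rises and 59 falls among the 93 other pathway genes (11 and 6 as deposited). On the poly-A scale Mthfd2 read -0.015 (limma adjusted p = 0.956), and of the genes that had not passed 8 turned from above to below 0 and passed: Atf5 -0.59, Cebpg -0.55, Phgdh -0.59, Psph -0.70, Slc3a2 -0.52, Atf6 -0.57, Xbp1 -0.68 and Hsp90b1 -0.54. Another 10, below 0 as deposited, passed too: Fgf21, Ern1, Calr, Dnajc3, Sdf2l1, Pdia3, Pdia4, Pdia6, Herpud1 and Edem1. Over all genes this centring gave 377 rises and 10120 falls, and centring on hepatocyte markers 1330 and 361, against 1400 and 1082 as deposited. The fall of Fgf21 made 1 fall with the filter at the 60th percentile, quantile normalization, array weights or probe sets averaged by gene. With an array left out, 0 to 1 integrated stress response genes fell, and 0 to 5 ER genes rose and 0 to 2 fell. The other pathway genes then had 7 to 17 rises and 0 to 8 falls. Their falls were 10 with quantile normalization, 10 with array weights and 0 with arrays centred on hepatocyte markers. Without a filter 2 member probe sets fell in place of 1. No paired analysis was possible because the labels give the genotypes no shared replicate numbers.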
